A study of Mus musculus with 3 samples.

Results

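The genes described here are the histone genes on a mouse array: the cluster histones, named Hist1 to Hist4 on the array, and the replacement histones, with names of the forms H2af, H3f3a, H3f3b, H1f0 and H1fx. They were chosen by the gene name printed in the array files, which found 62 genes with 78 probes among 30340 gene names and 39429 probes. Cluster histones made up 49 of the genes (57 probes) and replacement histones 13 (21 probes). A probe is a DNA strand of 60 bases, a 60-mer. Of the 62 genes, 54 had at least 1 probe kept for testing, meaning that every array read it well above background in Cy3, in Cy5 or in both. The 8 genes without one were the cluster genes Hist1h1a, Hist1h1d, Hist1h2ac, Hist1h2bq, Hist3h2ba and Hist3h2bb-ps and the replacement genes H2afb1 and H2afb2-ps.

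The cells were RM1, a line of mouse prostate cancer. The labels describe RM1-MXRA7 as RM1 transfected with MXRA7 and RM1-VE as RM1 given the vehicle vector, and both were grown in medium with serum and G418. RNA was taken in exponential growth, given as day 2. On each of 3 arrays, numbered as repeats 1 to 3, RM1-MXRA7 was labelled with Cy3 and RM1-VE with Cy5. The value of a probe is its log2 ratio of RM1-MXRA7 over RM1-VE (n = 3 arrays), and levels of different probes are not compared. The labels do not say whether a line was 1 clone or a pool, nor whether the repeats were separate cultures. The p-values therefore measure only the spread between these arrays. Most of that spread was pooled over all genes by limma, with 13.6 prior and 2 residual degrees of freedom. The median SD of a gene over the arrays was 0.25 for cluster histones and 0.12 for all genes. Pooling thus lowered the spread used for the more variable cluster genes. Dyes were never swapped, so dye bias and the difference between the lines cannot be told apart.

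The transfected gene did not check the direction of the ratios. The brighter Mxra7 probe had a log2 ratio of 0.31 ± 0.14 (SD, n = 3). It had 0.01 ± 0.05 after a smooth trend fitted to each array, here called the surface, had been subtracted. The surface followed the position of a spot on the array together with its intensity, so it is not purely spatial. The cell line expressed both keratin markers Krt8 and Krt18 and all 3 mesenchymal markers tested, while Epcam, Cdh1 and the prostate markers Hoxb13, Pbsn and Tmprss2 were not well above background in either channel of any array. Among the markers of other cell types, Ptprc was not well above background on any array, and Cd3e, Cd68, Pecam1 and Cdh5 were on all 3 in both channels. By limma before and after surface removal, Col1a1 (log2 ratio -1.82), Cdh5 (-0.87) and Cd3e (-0.29) were lower and Fn1 (0.73) higher in RM1-MXRA7, while Krt8, Krt18, Vim, Cd68 and Pecam1 were not called in both fits. The part of these differences in the histone values was not tested. The surface held 27.4% of the variance of the ratios on array 1, 26.3% on array 2 and 19.8% on array 3. A gene is therefore called higher (rose) or lower (fell) only where the limma fits before and after surface removal both called it in that direction at an adjusted p of 0.05. Values are from before the removal unless stated.

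Histones are the proteins around which DNA is wound. Cluster histone genes supply the H1, H2A, H2B, H3 and H4 made in bulk during DNA replication. Their mRNAs normally end in a short stem-loop in place of a poly(A) tail, and the stem-loop binding protein Slbp controls their processing and life time. Replacement histones come from genes outside the clusters, mostly with polyadenylated mRNAs, and are made and placed in chromatin outside replication too. The labels do not state which primer started the labelling of the RNA, so how well tailless mRNAs were labelled is not known here.

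Probe sequences are shown first, since they bear on how the values can be read. The stem-loop was searched as a stem of GGCNCT, a 4-base loop that starts with T, and the reverse complement of the stem, on the strand of the probe. It was found in 6 of all 39429 probes, and those 6 were all cluster histone probes. They are shown here as windows of 30 bases with the stem-loop in capitals, since they mark where on the mRNA a probe lies (mm9 coordinates of the array files):
Hist1h3a, chr13:23853756-23853785, minus strand: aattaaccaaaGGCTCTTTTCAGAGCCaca
Hist1h3g, chr13:23627749-23627778, plus strand: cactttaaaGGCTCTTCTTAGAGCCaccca
Hist1h3i, chr13:21874784-21874813, minus strand: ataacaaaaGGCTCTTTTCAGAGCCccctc
Hist1h4m, chr13:21903990-21904019, plus strand: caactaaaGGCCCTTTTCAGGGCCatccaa
Hist2h2aa2, chr3:96043699-96043728, minus strand: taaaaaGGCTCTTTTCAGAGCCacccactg
Hist2h2bb, chr3:96074086-96074115, plus strand: acccaaaaGGCTCTTTTCAGAGCCacttta

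In the Hist2h2aa2 probe the stem-loop starts at base 7, so most of the probe lies downstream of the place where the mature mRNA normally ends. In the other 5 it starts at base 39 to 42. The poly(A) signal AATAAA was present on the probe strand in 6 member probes, of H2afv, H2afz, H3f3b, Hist1h2ag, Hist2h2bb and Hist3h2ba, and in 12.6% of all probes. This is a description of the probes and not of where these mRNAs end.

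Histone copies are so alike that their probes overlap in sequence. Probes sharing at least 40 aligned bases at 85% identity or more, compared without gaps, formed an H2A set of 8 genes and an H4 set of 4 genes (Hist1h4c, Hist1h4d, Hist1h4j and Hist1h4k, the last by its dimmer probe). The 8 H2A probes are printed in full, with capitals at the bases that differ from the Hist1h2ak probe in the aligned part, because such probes could bind RNA of more than 1 copy, which was not tested (mm9, 5′ to 3′):
Hist1h2ak, chr13:21845304-21845363, minus strand: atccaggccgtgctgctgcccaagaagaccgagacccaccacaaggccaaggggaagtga
Hist1h2af, chr13:23626113-23626172, plus strand: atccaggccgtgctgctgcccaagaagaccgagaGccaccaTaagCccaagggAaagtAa
Hist1h2ag, chr13, plus strand: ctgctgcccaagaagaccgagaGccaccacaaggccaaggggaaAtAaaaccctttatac
Hist1h2ah, chr13:22127035-22127094, minus strand: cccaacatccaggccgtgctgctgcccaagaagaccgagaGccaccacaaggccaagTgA
Hist1h2an, chr13:21878695-21878754, minus strand: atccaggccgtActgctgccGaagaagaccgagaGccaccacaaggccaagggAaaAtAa
Hist2h2aa2, chr3:96043781-96043840, minus strand: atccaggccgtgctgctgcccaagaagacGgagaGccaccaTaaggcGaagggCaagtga
Hist2h2ac, chr3:96024378-96024437, minus strand: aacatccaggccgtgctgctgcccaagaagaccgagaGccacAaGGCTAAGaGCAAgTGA
H2afj, chr6:136757181-136757240, plus strand: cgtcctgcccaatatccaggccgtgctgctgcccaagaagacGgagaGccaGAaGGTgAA

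The number of differing bases was 5 for Hist1h2af and for Hist2h2aa2, 3 for Hist1h2ag and for Hist1h2ah, 6 for Hist1h2an, 16 for Hist2h2ac and 9 for H2afj. The aligned part was 60 bases for Hist1h2af, Hist1h2an and Hist2h2aa2 and 47 to 57 bases for the others. The sets were chained from pairs, 17 pairs in the H2A set, so members need not pair with all others: Hist2h2ac paired only with H2afj, a replacement gene, which also paired with Hist2h2aa2. Values of both sets are given as those of similar sequence.

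Among the cluster histones, 4 genes were called higher and 3 lower in both fits, of 43 tested, and 1 of the latter, Hist1h2al, passed the filter on dim probes only through RM1-VE. In RNA of whole cultures, fewer cells with an mRNA and less of it per cell cannot be told apart. Of all 16818 genes, limma called 47.3% before surface removal (23.9% higher, 23.5% lower) and 32.3% after it (15.5% higher, 16.8% lower), and both fits called 10.9% higher and 12.9% lower. The cluster shares, 9.30% higher and 6.98% lower, lay near or below that background. The replacement histones had 1 rise and 1 fall of 11 tested, or 9.09% each. The median log2 ratio was 0.03 for cluster histones, -0.01 for replacement histones and -0.02 for all genes, and after surface removal 0.09, 0.02 and -0.00. The difference of the cluster and replacement medians was -0.25, 0.13 and 0.02 on arrays 1, 2 and 3, a mean of -0.03 ± 0.19 (SD, n = 3), and 0.09 ± 0.19 after surface removal. It was smaller than the spread between arrays in both fits.

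**Figure D1:**
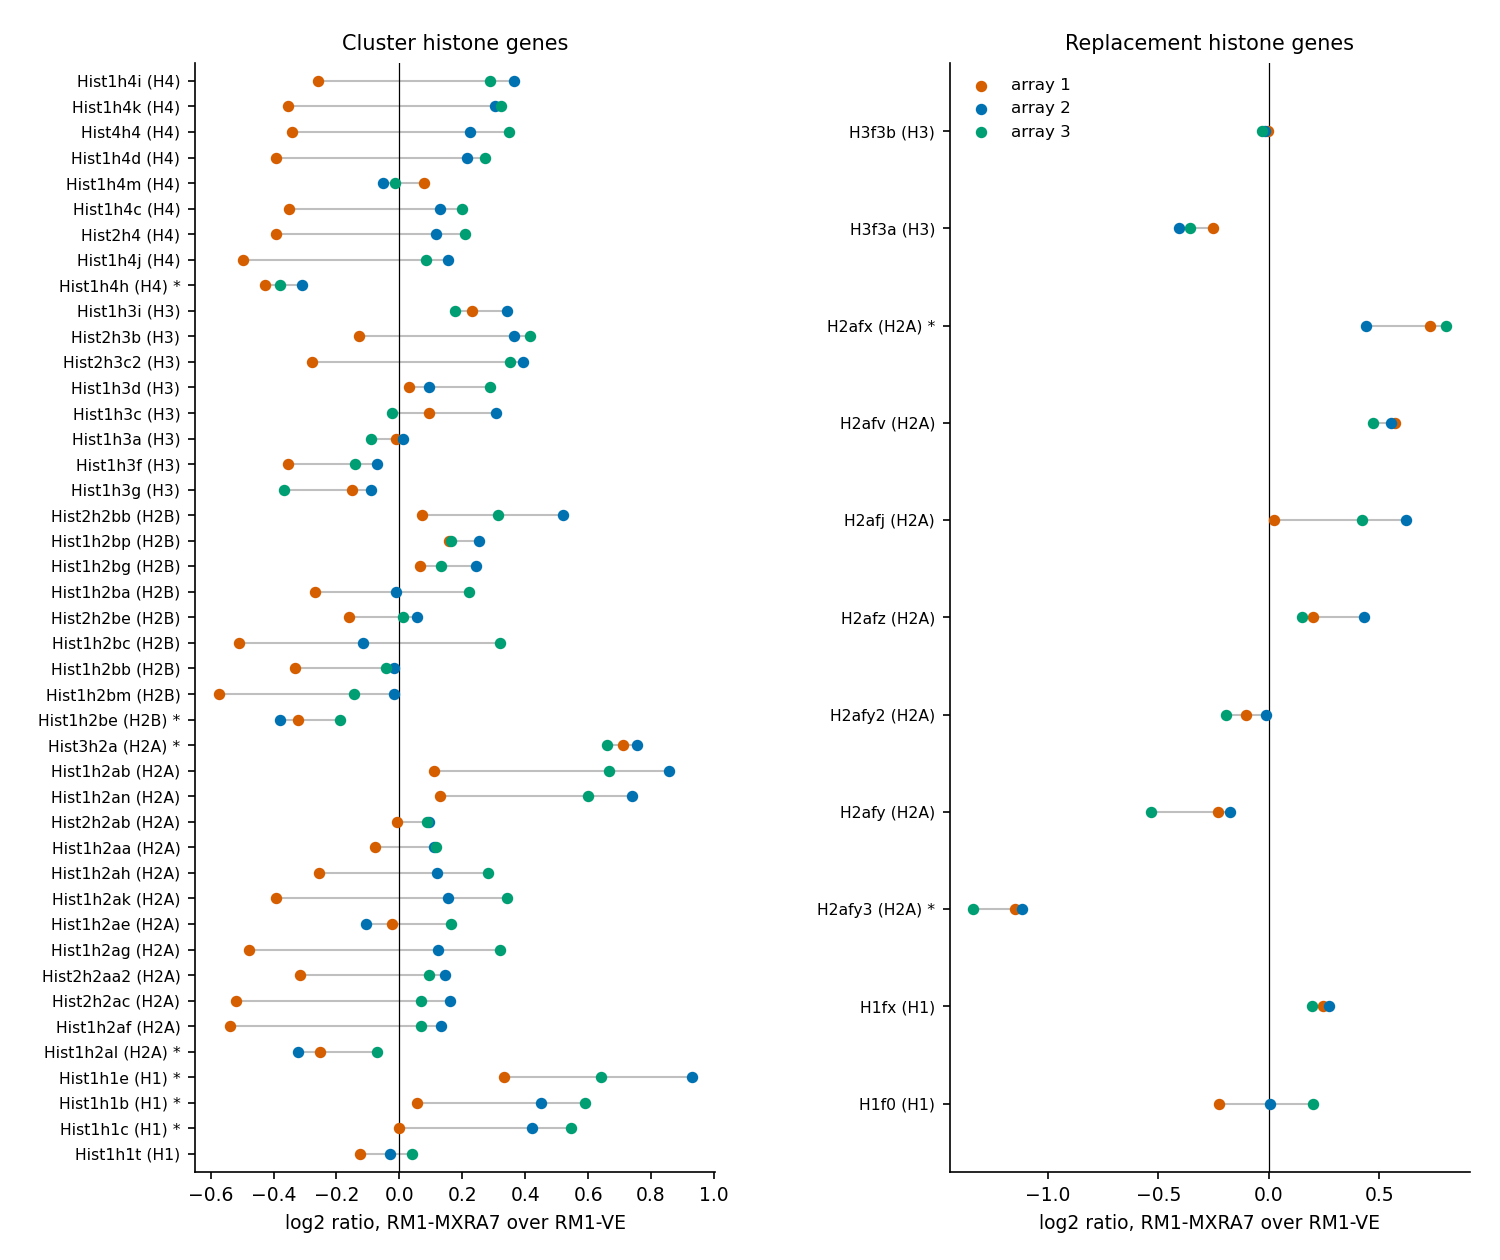
Log2 ratio of RM1-MXRA7 over RM1-VE on each of the 3 arrays (points, joined by a line from lowest to highest) for the 43 cluster histone genes and the 11 replacement histone genes tested, with the histone type in brackets. A star marks the 9 genes called in the same direction before and after surface removal, and array 1 is the lowest point for 34 of the 43 cluster genes.

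The linker histones H1, which bind the DNA between nucleosomes, held 3 of the 4 rises among cluster genes. Hist1h1e (now H1f4) had log2 ratios of 0.33, 0.93 and 0.64 on arrays 1, 2 and 3. Its mean was 0.63 ± 0.30 (SD, n = 3), a 1.55-fold higher level, with a limma adjusted p of 1.1e-04, and with the surface removed it was 0.30 ± 0.27 (adjusted p = 0.039). All 3 arrays were above 0 before surface removal, and array 1 lay at -0.01 after it.

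Hist1h1b (now H1f5) lay at 0.06, 0.45 and 0.59, a mean of 0.37 ± 0.28 (SD, n = 3; limma adjusted p = 0.0052), or 1.29-fold, and at 0.42 ± 0.24 after surface removal (adjusted p = 0.0074). Hist1h1c (now H1f2) lay at -0.00, 0.42 and 0.55, a mean of 0.32 ± 0.29 (SD, n = 3; limma adjusted p = 0.012), or 1.25-fold, and at 0.43 ± 0.24 after surface removal (adjusted p = 0.0069). In both genes arrays 2 and 3 were high and array 1 was near 0. Under median centring in place of loess, which put the median of all genes at -0.29, Hist1h1b lay at -0.15 and Hist1h1c at -0.10, above that median. The fourth H1 gene tested, the testis gene Hist1h1t, had a mean of -0.04 and was called in neither fit, and Hist1h1a and Hist1h1d were not kept. Of the 3 H1 rises, none was called in both fits without array 2, and only that of Hist1h1b was without array 3.

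The promoters of these 3 genes are shown because they were the H1 genes called higher, each 5′ to 3′. Their lower ratio on array 1 was not particular to H1, since 25 of 43 cluster genes had it by over 0.3. They are RefSeq promoters of the build GRCm38.p6, and capitals mark matches on either strand to AAACACA (a motif known from H1 promoters), CCAAT and TATAAA:
Hist1h1b, chr13:21780646-21780750, minus strand: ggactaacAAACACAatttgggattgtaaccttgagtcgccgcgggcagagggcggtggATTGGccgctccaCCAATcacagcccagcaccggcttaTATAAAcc
Hist1h1c, chr13:23738682-23738786, plus strand: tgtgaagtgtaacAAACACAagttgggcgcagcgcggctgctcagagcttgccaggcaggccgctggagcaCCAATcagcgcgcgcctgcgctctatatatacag
Hist1h1e, chr13:23622579-23622683, minus strand: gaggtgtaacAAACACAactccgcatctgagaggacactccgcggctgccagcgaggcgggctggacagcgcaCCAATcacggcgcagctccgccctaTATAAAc

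AAACACA began 117, 112 and 115 bases before the annotated start of Hist1h1b, Hist1h1c and Hist1h1e. It was also 122 bases before the start of Hist1h1d, which was not kept, and 114 before that of Hist1h1t, which was not called. It was present in 5 of the 6 H1 cluster promoters, in 9 of 42 cluster histone promoters and in 7.18% of all 32851 promoters of 300 bases. CCAAT was in 36 of the 42 cluster promoters (85.7%), in 6 of 10 replacement promoters and in 37.4% of all, and TATAAA in 25 (59.5%), 1 and 13.6%. RefSeq promoters were matched for 51 of the 62 genes, 41 cluster and 10 replacement. The matched promoters of the H1, H2A, H2B and H3 cluster genes all held CCAAT, and 2 of the 8 H4 promoters did. These matches describe letters in a window and not sites in use.

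Outside the H1 genes, Hist3h2a (now H2aw), an H2A gene at chr11:58768954-58769013, was the fourth cluster gene that rose. It lay at 0.71, 0.75 and 0.66, a mean of 0.71 ± 0.05 (SD, n = 3) or 1.63-fold, with a limma adjusted p of 3.8e-06, and at 0.52 ± 0.05 after surface removal (adjusted p = 3.7e-04). All 3 arrays were alike, and the call held in both fits with any 1 array left out. The other Hist3 genes, Hist3h2ba and Hist3h2bb-ps, were not kept.

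The 3 cluster genes called lower were Hist1 genes read by dim probes, with mean log2 intensities from 6.75 to 7.44. Hist1h4h (now H4c8), an H4 gene, lay at -0.43, -0.31 and -0.38, a mean of -0.37 ± 0.06 (SD, n = 3; limma adjusted p = 0.0011), and at -0.27 ± 0.04 after surface removal (adjusted p = 0.0076). Hist1h2be (now H2bc6), an H2B gene, lay at -0.32, -0.38 and -0.19, a mean of -0.30 ± 0.10 (SD, n = 3; limma adjusted p = 0.0056), and at -0.26 ± 0.08 (adjusted p = 0.012). Hist1h2al, an H2A gene that lies far from the cluster on chromosome 13, lay at -0.25, -0.32 and -0.07, a mean of -0.21 ± 0.13 (SD, n = 3; limma adjusted p = 0.036), and at -0.21 ± 0.11 (adjusted p = 0.033). In each of the 3 genes every array was below 0. The Hist1h2al probe was well above background on 2 of 3 arrays in RM1-MXRA7 and on all 3 in RM1-VE, so it was kept only through the line where it is higher, was not tested where both channels had to pass, and was not called without background correction (adjusted p = 0.099). Without array 2 none of the 3 was called in both fits, and without array 1 Hist1h2al was not called.

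The other 36 cluster genes were not called in both fits, and their ratios were described by type. Over all tested genes of a type, the 13 H2A genes ranged from -0.21 to 0.71 with a median of 0.04, and the 9 H2B genes from -0.30 to 0.30 with a median of -0.03. The 8 H3 genes ranged from -0.20 to 0.25 with a median of 0.13, and the 9 H4 genes from -0.37 to 0.13 with a median of 0.00. Among the H3 genes 1 was called higher and 1 lower before surface removal and 1 higher after it, and none of them in both fits. After surface removal the medians were 0.10 for H2A, 0.00 for H2B, 0.03 for H3 and 0.20 for H4.

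The Hist1 genes other than Hist1h2al lie within 2212 kb of chromosome 13 (mm9, 21814057 to 24026527), in a first block of 11 tested genes and a second of 20. Hist1h2ag was put in neither block, since the span listed for its probe is longer than the probe. The plus strand printed with its sequence is that of this listed span. Its matched RefSeq promoter lies on the minus strand, at chr13:22042900-22043199 of GRCm38.p6, so the strand and place in the array files are in doubt. The first block had a median log2 ratio of 0.09 (-0.25 to 0.49) and the second -0.01 (-0.37 to 0.63), so the ranges overlapped. Ratios of genes next to each other could be close, as for Hist1h1b at 0.37 and Hist1h3i at 0.25 in the first block, or far apart, as for Hist1h2be at -0.30 and Hist1h1e at 0.63 in the second. Tested probes in the stretch with a histone in their array description but without a histone gene name were set aside. They lay at -0.38, 0.21 and 0.15 and at -0.45, 0.16 and 0.58 on arrays 1, 2 and 3. The stretch also held 61 other gene names, 35 of them Vmn1r vomeronasal receptor genes, and 13 of the 61 were tested. Their median was -0.00, and 1 rose (Zfp184, a zinc finger gene, at 0.24). Another 3 fell (Btn1a1, a butyrophilin gene, at -0.56, Vmn1r204 at -0.31, and an unnamed probe at -0.24). Of all genes 10.9% rose and 12.9% fell, and with 13 genes these counts are not read as a trait of the stretch.

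**Figure D2:**
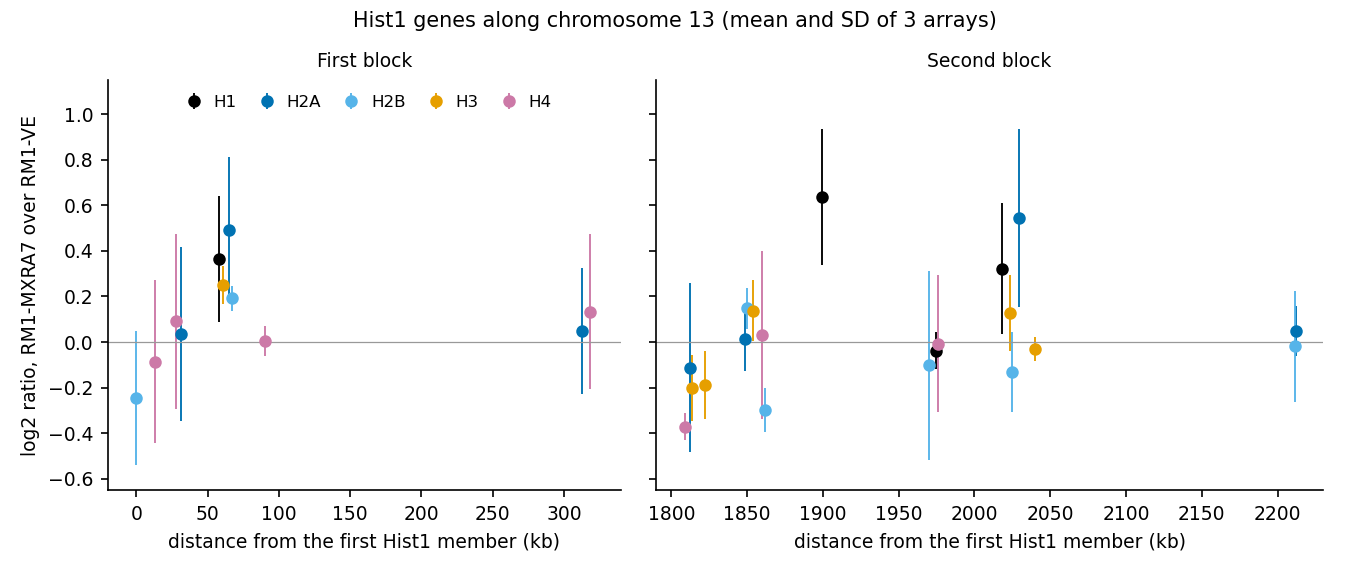
Log2 ratio of the tested Hist1 genes (mean ± SD over 3 arrays, coloured by histone type) against the distance in kb of the probe from the first Hist1 member on chromosome 13, with the 2 blocks in separate panels. Hist1h2ag and Hist1h2al are not drawn. The ratios run from -0.25 to 0.49 in the first block and from -0.37 (Hist1h4h) to 0.63 (Hist1h1e) in the second.

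Array 1 stood apart from arrays 2 and 3 in the cluster histones. It gave the lowest of the 3 ratios in 34 of 43 cluster genes (79.1%), against 32.4% of all genes and 2 of 11 replacement genes. The median cluster ratio was -0.25 on array 1, 0.13 on array 2 and 0.18 on array 3, and all genes had -0.02, -0.02 and -0.01. After surface removal the cluster medians were -0.10, 0.19 and 0.19, and array 1 was the lowest in 36 of 43. Array 1 lay over 0.3 below the mean of the other arrays in 25 cluster genes (58.1%), against 4.79% of all genes. Of the 11 replacement genes 2 had that difference (18.2%), H2afj at -0.50 and H1f0 at -0.33. The cluster genes with that difference were mostly the bright ones. It was seen in 1 of 11 cluster genes with a mean log2 intensity under 8, in 1 of 6 from 8 to 10, 5 of 7 from 10 to 12, 6 of 6 from 12 to 14, 5 of 5 from 14 to 16 and 7 of 8 above 16. The 7 genes above 16 were all in the H2A set, whose probes are alike in sequence, so they may not be separate signals. Brightness here is a property of the probe and is not read as an amount of mRNA. Among genes that are not cluster histones the share was 2.95% to 6.11% in these 6 classes.

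By type, the difference of array 1 from the mean of the others had a median of -0.59 for H4, -0.46 for H1, -0.46 for H2A, -0.30 for H2B and -0.10 for H3. Within H3 the genes divided, with Hist2h3b at -0.52 and Hist2h3c2 at -0.65 while Hist1h3a, Hist1h3c, Hist1h3g and Hist1h3i lay between -0.05 and 0.08, Hist1h3d at -0.16 and Hist1h3f at -0.25. Hist4h4, an H4 gene on chromosome 6, where the replacement gene H2afj also lies, was at -0.63. All 8 tested Hist2 genes had array 1 lowest. The S-phase list had a median difference of -0.02, with 1 of 27 genes over 0.3 lower on array 1. The histone chaperone list had 1 of 32 and the histone mRNA list 1 of 21. What set array 1 apart for these genes was not tested.

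**Figure D3:**
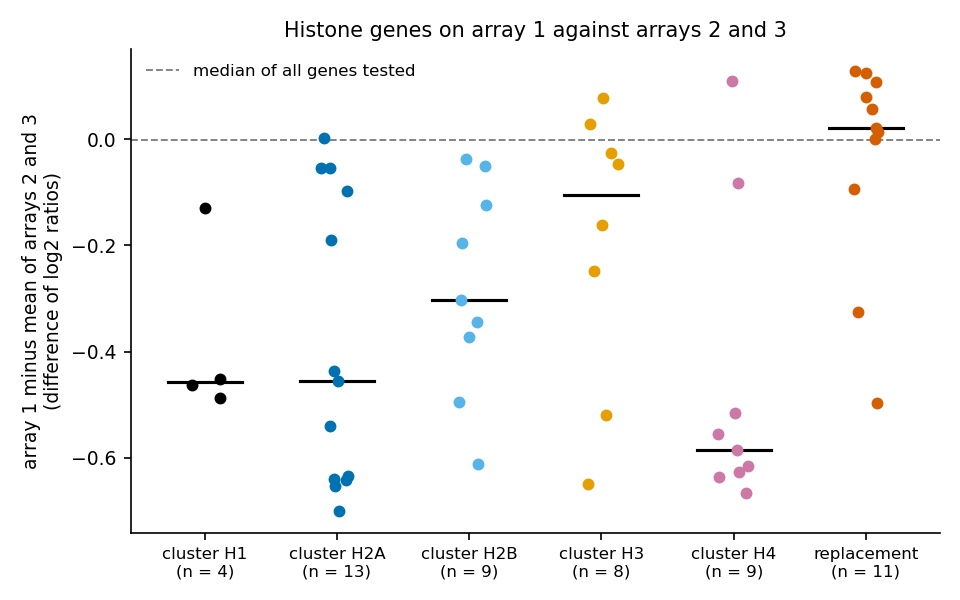
Log2 ratio on array 1 minus the mean log2 ratio of arrays 2 and 3 for each tested histone gene (points) by class and type, with the group median as a bar. The dashed line is the median of all genes tested. Cluster H4 genes have a median of -0.59 and replacement genes 0.02.

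In the 8 probes of the H2A set the ratio was -0.54 to 0.13 on array 1, 0.12 to 0.74 on array 2 and 0.07 to 0.60 on array 3, and array 1 was the lowest for each of them. The channels of the arrays, after loess and equal quantiles of brightness between arrays, were set against each probe's own mean. On array 1 the RM1-VE channel of the set had a median of 0.26 above that mean and the RM1-MXRA7 channel one of -0.10. On array 2 the medians were -0.09 for RM1-VE and 0.06 for RM1-MXRA7, and on array 3 they were -0.19 and 0.11. The 4 H4 probes likewise had RM1-VE above RM1-MXRA7 on array 1, at 0.38 against -0.02, and below it on array 2, at 0.02 against 0.17. Both channels of the H4 set were lower on array 3, at -0.36 and -0.24. By these medians the order of the lines was opposite on array 1 and on the other arrays in the H2A and H4 sets.

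**Figure D4:**
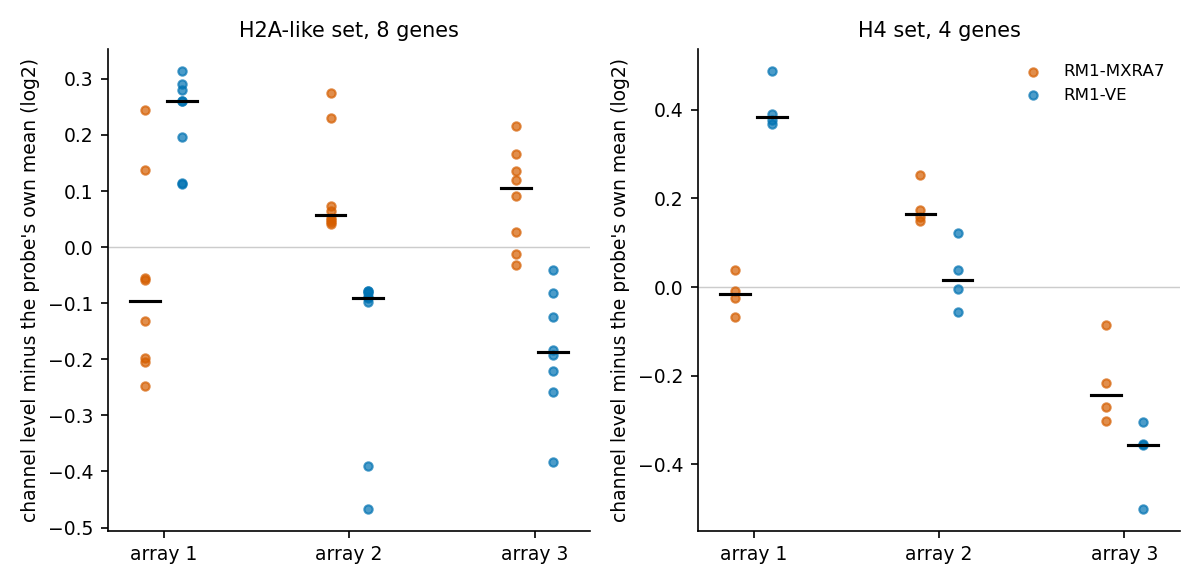
Normalised log2 level of each channel minus the probe's own mean over the 6 channel values, on each array, for the 8 probes of the H2A set and the 4 of the H4 set (points, with the median as a bar). RM1-VE lies above RM1-MXRA7 on array 1 in both sets, at medians of 0.26 against -0.10 for H2A and 0.38 against -0.02 for H4.

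Leaving out array 1 changed the cluster count. It was the lowest array in 34 of the 43 cluster genes, so more rises without it could be foreseen and are no further result. With arrays 2 and 3 alone, 11 of 43 cluster genes were higher in both fits (25.6%) and 2 were lower, against 10.2% and 11.6% of all genes. The genes then called higher, besides the 4 above, were Hist1h2ab, Hist1h4i, Hist1h4k, Hist2h2bb, Hist2h3b, Hist2h3c2 and Hist4h4, at log2 ratios of 0.76, 0.33, 0.31, 0.42, 0.39, 0.37 and 0.29. The dimmer kept probes of Hist1h4i did not share its value, at 0.10 and -0.18 and at 0.03 and -0.18 on arrays 2 and 3. The dimmer Hist1h4k probe lay at 0.14 and 0.09 on these arrays. Without array 2, Hist3h2a was the 1 cluster gene called in both fits, while 4.97% of all genes were higher and 6.14% lower. Without array 3, Hist3h2a and Hist1h1b were higher and 3 genes lower, with 9.12% and 11.1% of all genes. With 2 arrays left, the p-values rest almost wholly on the spread pooled over genes. The replacement histones kept 1 higher and 1 lower gene, H2afx and H2afy3, under each of these.

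Among the replacement histones, H2afx (now H2ax) rose. It encodes H2A.X, the H2A form that is phosphorylated around DNA double-strand breaks. Its probe, at chr9:44144033-44144092, lay at 0.73, 0.44 and 0.80, a mean of 0.66 ± 0.19 (SD, n = 3) or 1.58-fold, with a limma adjusted p of 2.4e-05. After surface removal it was at 0.60 ± 0.07 (adjusted p = 2.1e-04). All 3 arrays were clearly above 0. Under median centring it lay at 0.13 and was not called (adjusted p = 0.29), while the median of all genes lay at -0.29.

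H2afy3 (now Macroh2a3) had the largest ratio of all members tested. Its probe, at chr15:62049165-62049224, lay at -1.15, -1.12 and -1.34, a mean of -1.20 ± 0.12 (SD, n = 3) or 2.30-fold lower, with a limma adjusted p of 1.3e-08. After surface removal it was at -1.12 ± 0.08 (adjusted p = 5.3e-06), and it fell in each alternative tried. Its first 15 bases, ttgtaactacaccta, are the last 15 of the H2afy2 probe. The macroH2A genes H2afy and H2afy2, whose proteins carry a large extra domain and are enriched on the inactive X chromosome, did not share that ratio. H2afy lay at -0.23, -0.18 and -0.53, a mean of -0.31 ± 0.19 (SD, n = 3; limma adjusted p = 0.0072), and at -0.13 ± 0.17 after surface removal (adjusted p = 0.20). H2afy2 lay at -0.10, -0.02 and -0.19, a mean of -0.10 ± 0.09 (SD, n = 3; limma adjusted p = 0.28), and at -0.29 ± 0.04 after surface removal (adjusted p = 0.0055).

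The H2A.Z genes H2afz and H2afv, whose proteins replace H2A near gene starts, were not called in both fits. The brighter H2afz probe lay at 0.20, 0.43 and 0.15, a mean of 0.26 ± 0.15 (SD, n = 3; limma adjusted p = 0.015), but at -0.23 ± 0.14 after surface removal (adjusted p = 0.032), so its sign turned with the surface. The brighter H2afv probe lay at 0.57, 0.55 and 0.47, a mean of 0.53 ± 0.05 (SD, n = 3; limma adjusted p = 5.8e-05), and at 0.14 ± 0.12 after surface removal (adjusted p = 0.13). Under median centring it lay at -0.13.

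The H3.3 genes H3f3a and H3f3b encode the same protein, the H3 form placed outside replication by the Hira and Daxx chaperones. H3f3a lay at -0.25, -0.41 and -0.35, a mean of -0.34 ± 0.08 (SD, n = 3; limma adjusted p = 0.0022), and at 0.02 ± 0.08 after surface removal (adjusted p = 0.84). H3f3b lay at -0.00, -0.02 and -0.03, a mean of -0.02 ± 0.015 (SD, n = 3; limma adjusted p = 0.86), and at 0.37 ± 0.16 after surface removal (adjusted p = 0.0059). For these brightest probes the removal moved the value up by more than the spread between arrays. Another H3f3b probe moved down, from 0.31 ± 0.14 (adjusted p = 0.0047) to -0.01 ± 0.08 (adjusted p = 0.94), and neither gene was called in both fits.

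The replacement H1 genes were not called in both fits. H1f0, a linker histone known from non-dividing cells, lay at -0.22, 0.01 and 0.20, a mean of -0.01 ± 0.21 (SD, n = 3; limma adjusted p = 0.96), and at 0.07 ± 0.18 after surface removal (adjusted p = 0.47). H1fx (now H1f10) lay at 0.25, 0.27 and 0.19, a mean of 0.24 ± 0.04 (SD, n = 3; limma adjusted p = 0.017), and at 0.08 ± 0.04 after surface removal (adjusted p = 0.27). The brightest H2afj probe, in the H2A set, lay at 0.02, 0.62 and 0.42, a mean of 0.36 ± 0.30 (SD, n = 3; limma adjusted p = 0.0076), and at -0.28 ± 0.35 after surface removal (adjusted p = 0.090).

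**Figure D5:**
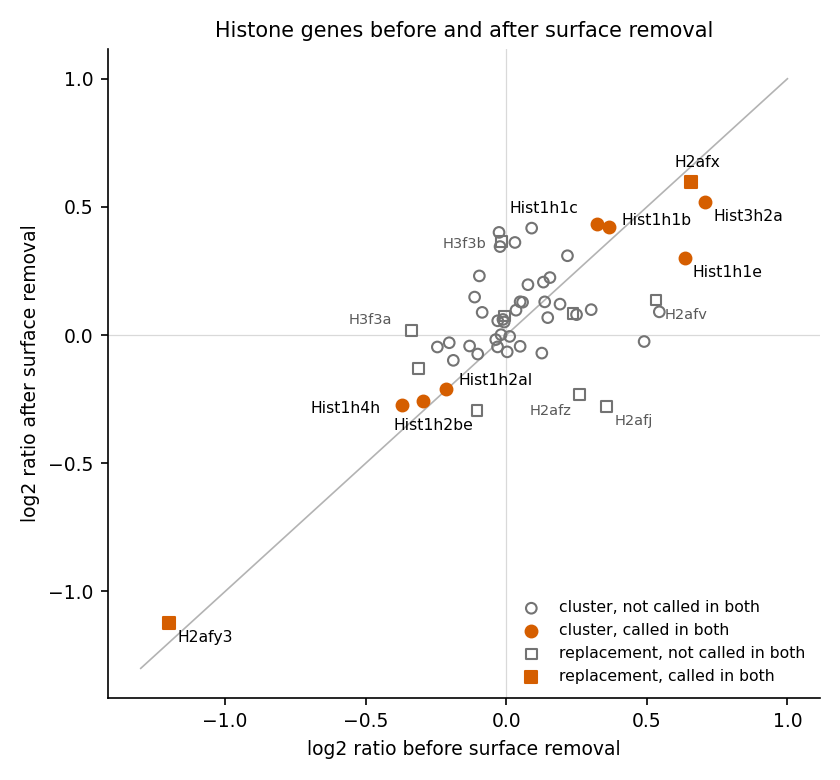
Mean log2 ratio of each tested histone gene before (x axis) and after (y axis) removal of the surface trend, for cluster histones (circles) and replacement histones (squares). Filled symbols are the 9 genes called in the same direction in both fits. H2afz and H2afj lie to the right of 0 and below it, at 0.26 and 0.36 before against -0.23 and -0.28 after.

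Different probes of 1 gene disagreed in several cases. Probe by probe, the fits over all 21792 kept probes called 5 of the 48 kept cluster probes higher and 3 lower, and 2 of the 19 replacement probes higher and 2 lower, against 11.2% and 12.5% of all probes. The Hist2h2aa2 probe with the stem-loop near its start, which reads mostly past the normal end of the mRNA, lay at 0.12, 1.36 and 1.83. The mean of these was 2.15-fold, with an SD of 0.88 on the log2 scale (n = 3; limma adjusted p = 2.2e-04), and after surface removal the log2 ratio was 1.06 ± 0.86 (adjusted p = 0.0093). The probe of the same gene in the H2A set was at -0.32, 0.15 and 0.09. Arrays 2 and 3 were far above array 1 for the downstream probe, and its fold rests on them. The other 5 stem-loop probes had means from -0.20 to 0.30 and were not called in both fits.

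The dimmer H2afj probe fell, at -0.44, -0.37 and -0.48 (mean -0.43 ± 0.06, SD, n = 3; limma adjusted p = 2.5e-04; after surface removal -0.28 ± 0.04), opposite in sign to the brightest probe before surface removal. The dimmer H2afv probe rose, at 0.20, 0.11 and 0.65 (mean 0.32 ± 0.29, SD, n = 3; limma adjusted p = 0.010; after surface removal 0.33 ± 0.25). The dimmer H2afz probe had 0.04 ± 0.23 (-0.04 ± 0.19 after surface removal). The dimmer H3f3a probe had -0.08 ± 0.04, and 0.22 ± 0.09 after surface removal (limma adjusted p = 0.021), so it was called only after the removal. The dimmer H2afy probes had -0.09 ± 0.27 and 0.09 ± 0.25, against -0.31 for the brightest, and were called in neither fit. A second Hist1h2ak probe outside the H2A set lay at 0.41, 1.02 and 0.75, above 0 on all arrays, and was called only before surface removal. The gene values given above are those of the brightest kept probe.

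Genes that act on histone mRNAs and histones were described from 3 lists. Of 21 tested genes of histone mRNA synthesis and processing (23 listed), 1 was higher and 2 were lower in both fits. Upf1, a helicase of mRNA decay that takes part in histone mRNA degradation, rose with a log2 ratio of 0.36 ± 0.22 (SD, n = 3). Lsm11, a protein of the U7 particle that cuts histone mRNAs, fell by 0.24, and Cpsf2, of the cleavage complex, fell by 0.20. Slbp lay at -0.03, 0.22 and -0.07 and was called after surface removal only. The list had a median of 0.02, against -0.02 for all genes.

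Of 32 histone chaperone genes tested, 2 were higher and 1 was lower in both fits, and the list median was 0.06. Dnajc9, a co-chaperone of histones, rose with 0.64 ± 0.23 (SD, n = 3; 0.20 after surface removal). Srcap, the motor that places H2A.Z, rose with 0.29 ± 0.13 (0.20 after surface removal, limma adjusted p = 0.040). Its probe was dim, with a mean log2 intensity of 7.11. Cabin1, a subunit of the Hira complex, fell by 0.39. Of the 27 genes of S phase tested, 2 were higher and 1 was lower in both fits. Cdc6, which loads the replicative helicase, rose with 0.55 ± 0.25 (0.26 after surface removal), and Gins2, of the GINS complex, with 0.39 ± 0.11. Tyms, the thymidylate synthase, fell by 0.29. The median of the S-phase list was 0.23 before and 0.08 after surface removal, and 14 of its 27 genes were called higher before the removal and 6 after it, against 23.9% and 15.5% of all genes. Under median centring 1 was higher and 17 were lower. The shares of all 3 lists called in both fits were 4.76% to 7.41% higher and 3.13% to 9.52% lower, below the 10.9% and 12.9% of all genes. Without array 2, limma called none of the genes of the 3 lists in both fits (7 histone mRNA, 14 chaperone and 13 S-phase genes had an unadjusted p under 0.05 before surface removal, and 4, 4 and 3 after it). Of the calls made with 3 arrays, the lists in the same order kept 1, 3 and 1 without array 1 and 1, 2 and 3 without array 3.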

How the data were processed

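Total RNA of both lines was measured on 3 Agilent mouse arrays on 1 slide. The authors deposited scanner output with the mean spot intensity and background intensity of both dyes and a processed intensity, made with Agilent Feature Extraction 10.7.1.1 per the submitters' processing notes and detrended and dye-normalized per the file headers. The deposited series matrix gives the authors' ratio of each probe on a linear scale, which equalled processed green over red within 1%, with column medians of 1.02, 1.03 and 0.972, so it was not centred. Here intensities were corrected with normexp (offset 50), normalized by loess within arrays and turned to RM1-MXRA7 over RM1-VE with limma 3.58.1 in R 4.3.3. Control and outlier-flagged spots were left out, and replicate spots averaged. Of 39429 probes 21792 were kept, and each of 16818 genes was represented by its brightest kept probe. The test was limma's lmFit and eBayes on the log2 ratios, against 0, and p-values adjusted over all genes (Benjamini-Hochberg). The surface was a polynomial of degree 4 in row and column, fitted together with spot intensity and the products of intensity with the polynomial terms. Effects of position and of intensity were thus removed together and cannot be told apart. Probe coordinates are mm9 from the array files, and promoters are RefSeq's on GRCm38.p6. Fits were also run on simulated data, where all genes shared the same spread and the added surface had the form of the fitted terms. That run therefore cannot tell how well surface removal works on these arrays. All members with a kept probe could be named. Of the other lists, those called in both fits were named, and Slbp was named outside this rule. The members and lists were chosen with earlier results of these data known. Precision is limited by the 3 arrays, with 2 residual and 13.6 prior degrees of freedom. Some of the listed marker genes are not reported here.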

Additional observations from a re-analysis of the deposited data

How the results depend on the processing

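For the 7 cluster genes called in both fits and the 11 replacement genes, 18 in all, the alternatives gave 305 values. Of these, 218 stayed on their side of the threshold, 57 kept direction but lost the call, 12 gained a call and 18 were of called genes whose sign turned. All genes called numbered 7963, with 4100 from the series matrix and 2323 from single channels without a replicate block. With array 1, 2 or 3 left out they numbered 5108 to 7400, and 2361 to 5384 with the surface removed too, an alternative chosen after seeing the data (4524 without array 3). Calls among cluster histones went from 14 (9 higher, 5 lower) to 27 (2 higher, 25 lower) under median centring, 6 from the series matrix, 2 from single channels, 6 to 15 with 1 array left out, and with the surface removed too 22, 1 and 7 without arrays 1, 2 and 3. Those among replacement histones went from 8 to 5 after surface removal, from the series matrix and by averaging the probes of each gene, to 2 from single channels, to 5 to 7 with 1 array left out, and to 4 to 6 with the surface removed too. Under median centring, the series matrix, each probe tested and single channels, the histone mRNA list went from 6 to 16, 3, 12 and 0 (limma; 8 at an unadjusted p under 0.05 in the fit of ratios), and the chaperone list from 14 to 23, 3, 29 and 4. After surface removal the chaperone list had 7 calls. The S-phase list went from 16 to 8 after surface removal, 1 from the series matrix and 5 from single channels. With 1 array left out these lists had 3 to 5, 5 to 13 and 9 to 15 calls, and with the surface removed too, without arrays 1, 2 and 3, they had 5, 2 and 4, then 7, 1 and 5, then 4, 0 and 8. The median of replacement histones relative to all genes, 0.0086, was -0.22 under median centring, 0.12 from the series matrix and -0.0021 to 0.11 with 1 array left out.

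Under median centring all 7 calls among replacement histones and all 16 of the histone mRNA list were lower, as were 22 of 23 of the chaperone list and 17 of 18 of the S-phase list. It put the median of all genes at -0.29 and 8.82% of calls on the higher side, against 50.4% with loess. Under it H2afj was at -0.51, H2afv at -0.13, H2afz at -0.55, Hist1h1b at -0.15 and Hist1h1c at -0.10. After surface removal H2afj was at -0.28, H2afz at -0.23 and H3f3a at 0.017. With the surface removed and array 1, 2 or 3 left out, H2afj was at -0.084, -0.32 and -0.43 and H2afz at -0.15, -0.27 and -0.28. H3f3a was then at 0.0149 without array 1 and 0.057 without array 2. H2afj was at -0.038 by averaging its probes, and H1fx at -0.049 from the series matrix. The cause was not tested. H2afx was not called from single channels (limma adjusted p = 0.054). The main test is itself paired, since each ratio compares both lines on 1 array, and the single channels without a replicate block are the unpaired fit.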
